A study of Mus musculus with 8 samples.

Results

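*Cd163*, *Folr2*, *Ccl8* and *Ccl17* are 4 genes of tissue-type and alternatively activated macrophages. They encode a scavenger receptor, a folate receptor and a pair of chemokines. They were compared between HM-1 tumours under anti-VEGF treatment and under control antibody. Each gene was read by 1 probe set, and the 4 genes were among 11667 genes tested. They were selected on their difference between these same tumours and on their likeness over them. Their levels, differences and correlations are therefore given as a description, with no test.

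Expression was read on Affymetrix mouse transcriptome arrays, 1 for each of 8 subcutaneous tumours. 4 mice had received an antibody against VEGF (the anti-VEGF group), and 4 had received rat IgG of the same isotype (the control group). All mice were of the B6C3F1 cross and carried tumours of HM-1, a mouse ovarian cancer cell line injected into the right flank. Per the labels, injections into the peritoneum started 3 days after the cells and were given 2 times a week until collection, when the long diameter of the tumour reached 1.5 cm. With collection set by size, as the labels say, the days under treatment can differ between tumours. The paper's methods instead give a later start and a course of fixed length. The part of treatment time in the differences was not tested. The antibody blocks VEGF-A of mouse and human, and the age of the mice is not given in the sources used here. HM-1 is 1 cell line, and whole tumours were taken, so that the RNA came from tumour cells and from all host cells among them. Fewer cells of a type and less RNA per cell cannot be told apart in such samples.

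CD163 sits on macrophages and takes up haemoglobin bound to haptoglobin. Glucocorticoids and interleukin-10 are known to raise it. FOLR2, or folate receptor beta, is anchored to the macrophage surface and binds folate, and many resident tissue macrophages carry it together with CD163. CCL8 and CCL17 are secreted chemokines. Mouse CCL8 acts on the receptor CCR8, and CCL17 acts on CCR4, a receptor of T helper cells and regulatory T cells. Interleukin-4 and interleukin-13 are known inducers of *Ccl17* in macrophages and dendritic cells, through the factor STAT6.

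The values were log2 expression as deposited, and their spread was wider on the anti-VEGF arrays. The SD over genes within an array was 1.99 to 2.08 in anti-VEGF tumours and 1.12 to 1.66 in control tumours. The log2 difference, anti-VEGF minus control, had a median of -0.44 over all genes. Split into tertiles by mean level, genes had a median of -1.07 in the dimmest tertile, -0.44 in the middle and 0.60 in the brightest. After the 8 arrays were quantile-normalised again, which gives every array the same spread, the median over all genes was -0.03 and those of the tertiles were -0.08, -0.05 and 0.10. Both scales are given below for this reason. Control tumour 3 stood apart, with correlations of 0.774 to 0.869 with the other arrays. Anti-VEGF tumour 1 carried digestive enzyme transcripts of the pancreas, with a mean of 9.24 over 28 acinar genes, against 4.11, 4.53 and 6.51 in anti-VEGF tumours 2, 3 and 4. The same mean was 8.94 to 10.48 in control tumours.

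The sequences before the start sites of the 4 genes were taken from RefSeq (build GRCm38.p6), since genes that are high in the same tumours can be compared at their promoters. Each line below holds the 250 bases before the start on the strand of the gene, and capitals mark a motif match.
Ccl17 (chr8:94810203-94810452, plus strand): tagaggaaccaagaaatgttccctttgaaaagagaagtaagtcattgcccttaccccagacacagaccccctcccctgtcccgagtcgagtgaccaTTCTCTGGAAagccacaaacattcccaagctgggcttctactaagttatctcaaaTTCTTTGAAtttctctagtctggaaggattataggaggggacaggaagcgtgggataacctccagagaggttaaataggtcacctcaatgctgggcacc
Ccl8 (chr11:82114935-82115184, plus strand): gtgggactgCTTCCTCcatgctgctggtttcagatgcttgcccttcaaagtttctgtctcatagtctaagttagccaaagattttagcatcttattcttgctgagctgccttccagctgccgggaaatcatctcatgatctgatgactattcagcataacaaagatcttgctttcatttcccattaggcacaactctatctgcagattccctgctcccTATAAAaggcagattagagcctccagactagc
Folr2, the second of 2 listed starts (chr7:101845332-101845581, minus strand): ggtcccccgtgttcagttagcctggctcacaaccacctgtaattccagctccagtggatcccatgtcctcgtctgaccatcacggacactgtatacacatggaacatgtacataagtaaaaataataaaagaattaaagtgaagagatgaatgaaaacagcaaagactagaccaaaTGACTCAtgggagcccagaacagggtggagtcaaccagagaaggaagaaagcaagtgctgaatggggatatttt
Cd163 (chr6:124304401-124304650, plus strand): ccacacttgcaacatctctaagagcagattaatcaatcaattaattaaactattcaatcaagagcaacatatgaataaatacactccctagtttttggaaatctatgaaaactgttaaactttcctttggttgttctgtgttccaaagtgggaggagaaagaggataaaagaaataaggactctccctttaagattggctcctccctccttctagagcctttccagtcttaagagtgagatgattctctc

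7 motifs were searched on both strands in the 250 bases before and the 50 bases after each start, for 32851 promoters. The *Ccl17* promoter held 1 STAT6-type site, TTC and GAA separated by 4 bases, beginning 154 bases before the start. Such a match was found in 6.95% of all promoters. It also held 1 site of the form used by other STAT factors, with 3 bases between TTC and GAA, beginning 99 bases before the start (8.30% of promoters). These matches did not overlap. The *Ccl8* promoter held a TATA box, TATAAA, beginning 32 bases before the start (13.6% of promoters). It also held the PU.1 motif GAGGAAG on the opposite strand, beginning 241 bases before the start (13.6% of promoters). PU.1 is a transcription factor of myeloid cells. The second *Folr2* promoter held the AP-1 motif TGACTCA, beginning 74 bases before the start (5.20% of promoters), and the first held no match. In *Cd163* the only match was the core of the hypoxia response element, ACGTG, on the opposite strand 30 bases after the start and outside the printed window (19.6% of promoters). The seventh motif, a form of the NF-kB site, matched none of the 4 genes and 0.317% of promoters. No motif was shared by a pair of the 4 genes.

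*Cd163* had log2 expression of 8.55, 9.65, 9.64 and 9.17 in anti-VEGF tumours 1 to 4, against 7.22, 7.45, 6.46 and 7.73 in control tumours 1 to 4. Every anti-VEGF tumour lay above every control tumour, and the closest 2 tumours were 0.82 apart. The group means were 9.25 ± 0.52 with anti-VEGF and 7.21 ± 0.55 in controls (SD, n = 4 each). The log2 difference was 2.04 (SE 0.32), or 4.10-fold, at rank 49 of the 11667 genes ordered from the largest increase. After quantile normalisation *Cd163* had 8.19, 9.31, 9.29 and 8.70 in anti-VEGF tumours, against 7.49, 7.67, 7.69 and 7.79 in control tumours. The low value of control tumour 3 was no longer seen on this scale. The control SD was 0.12 and the groups still did not overlap. The difference was then 1.21 (SE 0.25), or 2.31-fold, at rank 275.

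*Folr2* had log2 expression of 7.23, 8.26, 8.39 and 7.94 in anti-VEGF tumours 1 to 4, against 5.98, 6.83, 5.45 and 6.86 in control tumours 1 to 4. The order of the tumours was nearly that of *Cd163*, with anti-VEGF tumour 1 and control tumour 3 lowest in their groups. The groups did not overlap and were 0.38 apart at the closest. The means were 7.95 ± 0.51 with anti-VEGF and 6.28 ± 0.68 in controls, a log2 difference of 1.67 (SE 0.35), or 3.19-fold, at rank 181. After quantile normalisation the values were 6.91, 7.79, 7.89 and 7.48 with anti-VEGF, against 5.95, 7.04, 5.88 and 6.89 in controls. On this scale the groups overlapped, because anti-VEGF tumour 1 lay 0.13 below control tumour 2. The difference was 1.07 (SE 0.32), or 2.11-fold, at rank 399.

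*Ccl8* had log2 expression of 5.13, 5.39, 6.35 and 6.51 in anti-VEGF tumours 1 to 4, against 4.10, 4.74, 4.55 and 4.33 in control tumours 1 to 4. Anti-VEGF tumours 3 and 4 were highest, 1 and 2 lay between them and the controls, and the closest tumours of the groups were 0.39 apart. The means were 5.85 ± 0.69 with anti-VEGF and 4.43 ± 0.27 in controls. The log2 difference was 1.42 (SE 0.31), or 2.67-fold, at rank 396. *Ccl8* lay in the middle tertile of genes by mean level, and the other 3 genes lay in the brightest tertile. It was the only gene of the 4 whose difference was larger after quantile normalisation, at 1.68 (SE 0.31), or 3.21-fold, at rank 52. Its values were then 5.12, 5.44, 6.14 and 6.28 with anti-VEGF, against 3.45, 4.56, 4.02 and 4.20 in controls, and the groups did not overlap.

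*Ccl17* had log2 expression of 7.18, 8.07, 9.24 and 8.82 in anti-VEGF tumours 1 to 4, against 4.94, 6.34, 5.39 and 6.44 in control tumours 1 to 4. Anti-VEGF tumours 3 and 4 were highest, as for *Ccl8*, and the groups were 0.74 apart at the closest. The means were 8.33 ± 0.91 with anti-VEGF and 5.78 ± 0.73 in controls. The log2 difference of 2.55 (SE 0.46), or 5.86-fold, was the largest of the 4 genes and ranked 10 among all genes. After quantile normalisation the values were 6.86, 7.62, 8.82 and 8.32 with anti-VEGF, against 4.51, 6.51, 5.72 and 6.48 in controls. The groups did not overlap. The difference was 2.10 (SE 0.53), or 4.29-fold, at rank 13.

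**Figure D1:**
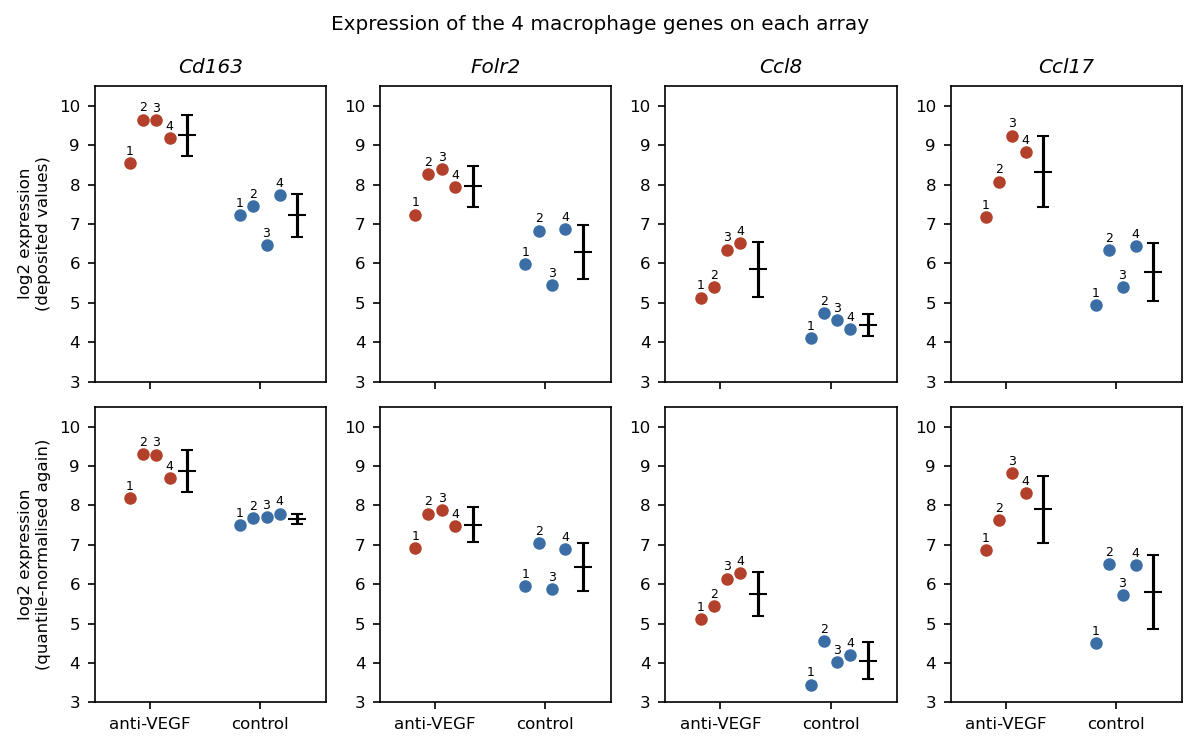
Log2 expression of *Cd163*, *Folr2*, *Ccl8* and *Ccl17* on each of the 8 arrays, as deposited (top row) and after quantile normalisation (bottom row). Points are tumours numbered by replicate (red, anti-VEGF; blue, control), and bars show the mean and SD (n = 4 each). Anti-VEGF tumour 1 is the lowest of its group for all 4 genes, and the groups overlap only for *Folr2* after quantile normalisation.

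Anti-VEGF tumour 1, which had the highest acinar mean of its group, was the lowest of its group for each of the 4 genes on both scales. The acinar transcripts also differed between the groups. All 28 measured acinar genes were lower with anti-VEGF at an adjusted p of 0.05 by limma, with a mean difference of -3.77, and 18 of the 28 were after quantile normalisation. Over all genes these shares were 46.6% and 4.45%. The acinar mean of anti-VEGF tumour 1, 9.24, lay within the control range of 8.94 to 10.48. The part of these transcripts in the values of the 4 genes was not tested. Without that tumour the differences on deposited values were 2.27 for *Cd163*, 1.91 for *Folr2*, 1.66 for *Ccl8* and 2.93 for *Ccl17*. Without control tumour 3 they were 1.78 for *Cd163*, 1.40 for *Folr2*, 1.46 for *Ccl8* and 2.42 for *Ccl17*.

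All 4 genes were past an adjusted p of 0.05 in the direction of anti-VEGF, in a limma fit over all genes. The same held for 19.1% of the 11667 genes, and 46.6% were past it in the direction of controls. Nothing is read from the count of 4, because the genes were chosen by this contrast. The groups did not overlap, with anti-VEGF higher, for 4 of the 4 genes and for 19.8% of all genes. After quantile normalisation 3 of the 4 genes were past the threshold, with *Folr2* short of it, against 7.47% of all genes higher and 4.45% lower. The calls on that scale changed when single arrays were left out. None (0) of the 4 was past the threshold without anti-VEGF tumour 2, 3 or 4, and only *Ccl8* was without control tumour 1. All 4 were past it without control tumour 2 or 4. The shares over all genes in these fits are not given here. With all 8 tumours on that scale, 3 of the 4 genes, and 13.5% of all genes, had every anti-VEGF tumour above every control tumour. After cyclic loess, a normalisation that fits each pair of arrays along the level, 4 of the 4 were past it, against 11.5% of all genes higher and 9.51% lower. Nothing is read from these counts either.

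**Figure D2:**
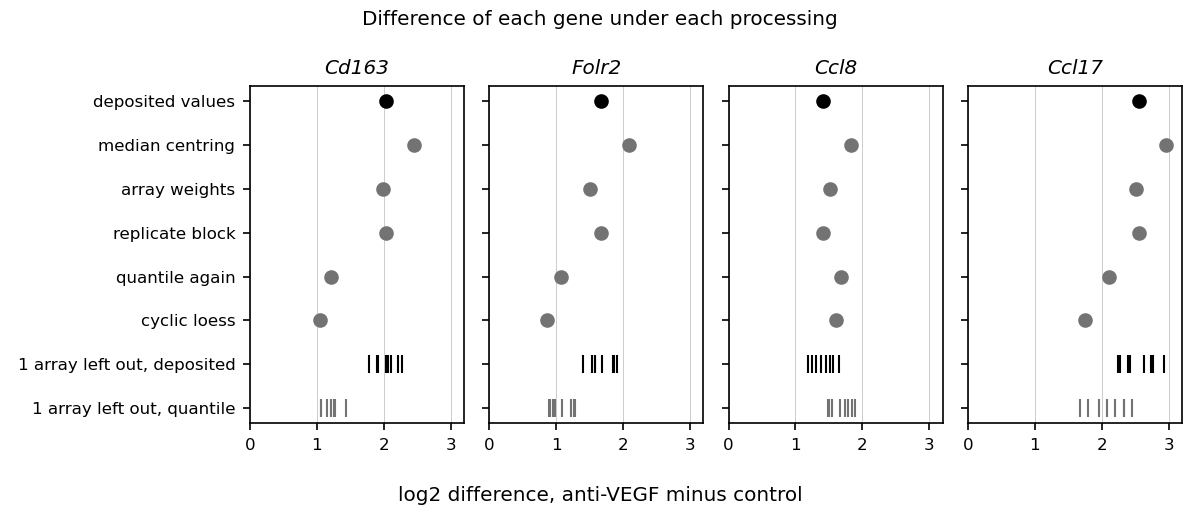
Log2 difference, anti-VEGF minus control, of each gene (x axis) under each processing (rows), with ticks for the fits that leave out 1 array. *Cd163*, *Folr2* and *Ccl17* are smaller after quantile normalisation or cyclic loess than as deposited, *Ccl8* is larger, and every value lies above 0.

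The label of the group as macrophage genes was set beside a list of 42 macrophage identity genes, of which 24 were measured. *Adgre1*, which encodes a defining surface antigen of mouse macrophages, and *Mrc1*, which encodes CD206, were not analysed here. *Csf1r*, the receptor of the macrophage growth factor CSF1, had log2 expression of 7.97 ± 0.33 with anti-VEGF and 7.15 ± 0.60 in controls. *Cd68*, a lysosomal protein of macrophages, had 7.98 ± 0.15 with anti-VEGF and 6.70 ± 0.72 in controls. 14 of the 24 genes rose and none fell at an adjusted p of 0.05 by limma, with a median difference of 0.89. For this list and those below, the shares over all genes were 19.1% higher and 46.6% lower as deposited, and 7.47% and 4.45% after quantile normalisation, with the medians of -0.44 and -0.03 given above. *Itgam*, the integrin chain CD11b, had a difference of 1.68 (adjusted p = 0.0023) and *Cd53*, a leukocyte tetraspanin, one of 1.95 (adjusted p = 0.00264). *Cd33*, a sialic acid-binding receptor, had a difference of 1.37 (adjusted p = 0.00285). After quantile normalisation 2 rose (*Itgam*, 0.86, and the protease gene *Ctsb*, 1.10) and none fell, with a median of 0.34. *Csf1r* then had a difference of -0.04 and *Cd68* one of 0.56, neither past the threshold.

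The 4 genes were higher with anti-VEGF by more than the mean of these 24 genes was. Nothing is read from that, because the 4 genes were chosen for their difference in this contrast. The mean of the 24 genes was 7.37, 7.70, 7.88 and 7.78 in anti-VEGF tumours 1 to 4. In control tumours 1 to 4 it was 6.92, 7.28, 6.24 and 7.16, a difference of 0.78. After quantile normalisation it was 7.14 to 7.70 with anti-VEGF and 6.85 to 7.36 in controls, and the groups overlapped. Taken relative to this mean on each array as deposited, *Cd163* differed by 1.25 between the groups, *Folr2* by 0.89 and *Ccl17* by 1.77. The groups did not overlap for these 3 genes. *Ccl8* differed by 0.63, and the groups overlapped. After quantile normalisation the relative differences were 0.82, 0.69, 1.30 and 1.72 for *Cd163*, *Folr2*, *Ccl8* and *Ccl17*, and none of the 4 overlapped. For *Folr2* the closest tumours were nearly level on that scale, at -0.231 in anti-VEGF tumour 1 and -0.244 in control tumour 4. The share of all genes without overlap on this relative measure was not computed, so nothing is read from these counts. *Ccl17* was first on both scales. *Ccl8* came before both receptor genes after quantile normalisation. As deposited its place beside *Folr2* rested on control tumour 3, without which *Ccl8* differed by 0.89 and *Folr2* by 0.84.

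**Figure D3:**
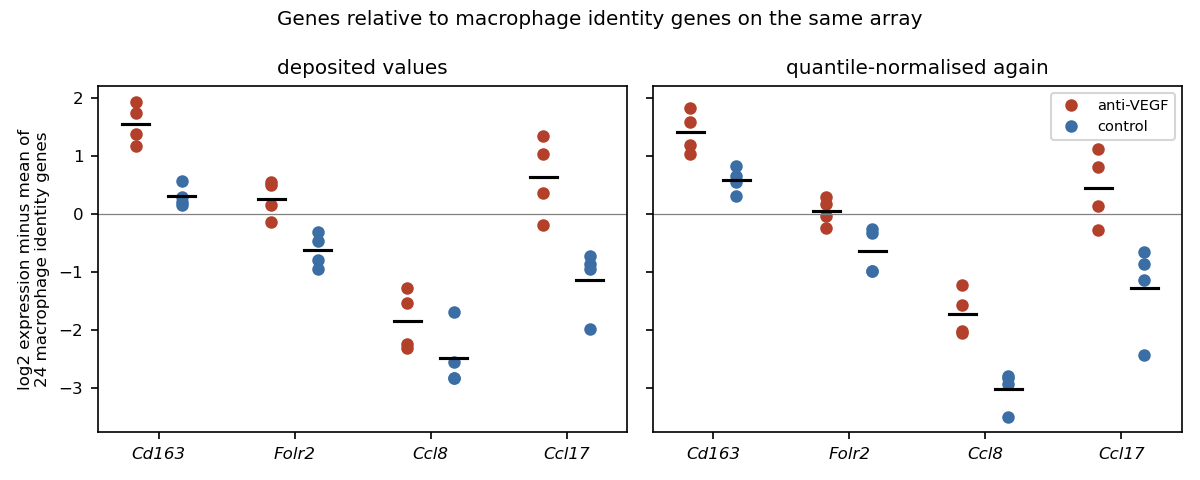
Log2 expression of each gene minus the mean of 24 macrophage identity genes on the same array, as deposited (left) and after quantile normalisation (right). Points are tumours (red, anti-VEGF; blue, control) and bars are group means. The groups overlap only for *Ccl8* on deposited values, and for *Folr2* after quantile normalisation the closest tumours are nearly level.

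Within the groups, the receptor genes followed each other most closely as deposited, and the chemokine genes did so after quantile normalisation. The group means were taken off first, since groups that stand apart give a correlation that repeats their difference. Over 8 tumours the deviations of *Cd163* and *Folr2* had a Pearson r of 0.95 (Spearman 0.88), and those of *Ccl8* and *Ccl17* one of 0.80 (Spearman 0.67). *Cd163* and *Ccl8* had an r of 0.24 (Spearman -0.02). *Folr2* and *Ccl17*, 1 from each pair, had an r of 0.80 too. After quantile normalisation the receptor pair had an r of 0.66, the chemokine pair 0.93, *Cd163* with *Ccl8* 0.41, and *Folr2* with *Ccl17* 0.80. These values share the arrays and their spread. Control tumour 3 had the narrowest spread of all arrays. Among all genes 1.41% had an r above 0.9 with *Cd163* and 2.27% with *Folr2*. For *Ccl8* and *Ccl17* these shares were 0.0171% and 0.0943%.

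Ranked over 11666 other genes by r of the deviations, *Folr2* was 28 for *Cd163* and *Cd163* was 60 for *Folr2*. *Ccl17* was 20 for *Ccl8*, and *Ccl8* was 125 for *Ccl17*, behind *Folr2* at 113. After quantile normalisation *Folr2* was 307 for *Cd163*, and *Cd163* was 1585 for *Folr2*, behind *Ccl17* at 725 and *Ccl8* at 1494. *Ccl17* was then 4 for *Ccl8*, and *Ccl8* was 11 for *Ccl17*. The chemokine genes thus ranked closer to each other after quantile normalisation, and the receptor genes farther apart.

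**Figure D4:**
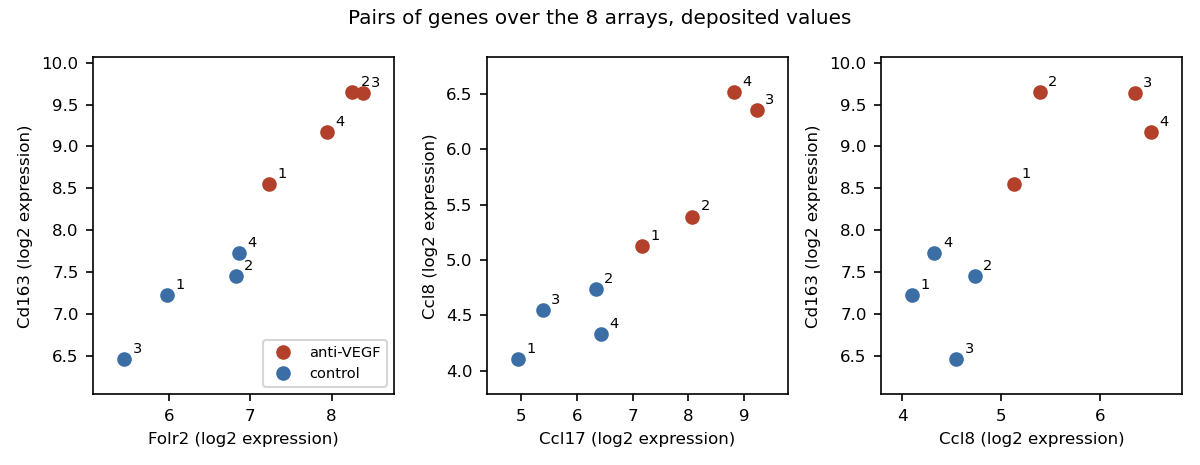
Deposited log2 expression of *Cd163* against *Folr2*, *Ccl8* against *Ccl17* and *Cd163* against *Ccl8* in the 8 tumours (red, anti-VEGF; blue, control; numbers give the replicate). *Cd163* and *Folr2* follow each other within both groups on this scale (r of 0.99 with anti-VEGF and 0.94 in controls, n = 4 each). After quantile normalisation these r were 0.98 and 0.56. Anti-VEGF tumours 2 and 3 have similar *Cd163* (9.65 and 9.64) and differ in *Ccl8* (5.39 and 6.35).

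The genes most like each of the 4 over the 8 tumours were ranked by Pearson r, n = 8. By r of the deposited values, *Cog6*, *Vps26a* and *Frrs1* were nearest to *Cd163* (0.996, 0.995 and 0.995). *Atrnl1*, *Pla2g15* and *Gm6634* were nearest to *Folr2* (0.993, 0.992 and 0.992). *Rpl8*, *Clec4d* and *Ythdf1* were nearest to *Ccl8* (0.966, 0.959 and 0.952), and *Clec4d* encodes a lectin receptor of myeloid cells. *Dbr1*, *Fig4* and *Mfap5* were nearest to *Ccl17* (0.984, 0.981 and 0.981). Of all genes, 11.9% had an r above 0.9 with *Cd163*, 11.1% with *Folr2*, 0.454% with *Ccl8* and 5.21% with *Ccl17*. By r of the deviations, *Slc33a1*, *Cog6* and *Mettl14* came first for *Cd163*, and *Slc16a14*, *Zfp960* and *Frrs1* for *Folr2*. *Rpl8*, *H2ac20* and the mast cell protease gene *Cpa3* came first for *Ccl8*, and *Exosc9*, *Dbr1* and *Rpp40* for *Ccl17*. After quantile normalisation the deviations of *Rpl8* and *Ccl8* had an r of 0.26, those of *Cpa3* and *Ccl8* 0.83, and those of *Exosc9* and *Ccl17* 0.94.

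The neighbours of the 4 genes on their chromosomes were looked at for the 5 genes on either side, of which 22 of 40 were tested. 4 of these rose and 9 fell as deposited by limma, and none was past the threshold after quantile normalisation. *Ccl8* lies in a cluster of chemokine genes on chromosome 11. There *Ccl7*, a ligand that draws monocytes, rose by 0.94 (adjusted p = 0.0288 by limma), and *Ccl11*, the eosinophil chemokine eotaxin, had a difference of 0.45 (adjusted p = 0.0764). After quantile normalisation *Ccl7* had a difference of 1.16 (adjusted p = 0.142) and *Ccl11* one of 0.31 (adjusted p = 0.349). *Cct6b*, a chaperonin subunit gene on the other side of *Ccl8*, fell by 0.72 as deposited (adjusted p = 0.0163). *Ccl2*, *Ccl12* and *Ccl1* of this cluster, and *Ccl22* and *Cx3cl1* beside *Ccl17* on chromosome 8, were not analysed here. On chromosome 6, the 5 genes before *Cd163* were vomeronasal receptor genes, *Vmn2r23* to *Vmn2r27*. They fell by 1.18 to 1.62 on the deposited scale and had differences of -0.57 to 0.02, none past the threshold, after quantile normalisation. Around *Folr2* on chromosome 7, *Pde2a* (0.88) and *Inppl1* (0.71) rose and *Phox2a* (-0.52) and *Tomt* (-0.69) fell as deposited, and *Folr1* was not analysed here. Around *Ccl17*, *Polr2c* rose by 1.27 and *Pllp* fell by 1.04 as deposited.

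Among other CC chemokine ligands, 7 of 19 were measured. 1 rose (*Ccl7*) and 3 fell on the deposited scale by limma, and 1 rose and none fell after quantile normalisation. The median difference was 0.22 as deposited and -0.07 after quantile normalisation. The 3 that fell were *Ccl26* (-1.20), *Ccl20* (-1.19) and *Ccl28* (-0.79), at adjusted p values of 0.00242, 0.00255 and 0.00988 by limma. *Ccl20* and *Ccl28* lay in the dimmest tertile (median difference -1.07 as deposited) and *Ccl26* in the middle tertile (-0.44). The 1 that rose after quantile normalisation was *Ccl3* (0.48, adjusted p = 0.0436 by limma), the ligand MIP-1 alpha. *Ccl24*, a chemokine of alternatively activated macrophages, had differences of 0.34 as deposited and -0.49 after quantile normalisation (adjusted p = 0.255 and 0.289 by limma).

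Of the CC chemokine receptors 11 of 15 were measured. 1 rose and 6 fell as deposited, with a median of -0.61, and 1 rose and none fell after quantile normalisation, with a median of 0.13. The gene that rose on both scales was *Ccr1*, a receptor of monocytes and neutrophils that binds CCL3 and CCL7. It had 5.71, 6.60, 6.70 and 6.72 with anti-VEGF, against 4.33, 4.78, 4.08 and 5.28 in controls. Its difference was 1.81 as deposited (adjusted p = 0.00142 by limma) and 2.02 after quantile normalisation (adjusted p = 0.024). *Ccr4*, the receptor of CCL17, had a mean of 2.39 ± 0.15 with anti-VEGF and 3.52 ± 0.55 in controls. Its difference of -1.13 as deposited (adjusted p = 0.00425 by limma) was -0.01 after quantile normalisation (adjusted p = 0.977). *Ccr8*, the receptor of mouse CCL8, had differences of -0.68 as deposited (adjusted p = 0.022 by limma) and 0.17 after quantile normalisation (adjusted p = 0.739). *Ccr3*, the eotaxin receptor, fell by 0.94 as deposited and had a difference of 0.24 after quantile normalisation. These 3 receptor genes lay in the dimmest tertile, which had a median difference of -1.07 as deposited.

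Other genes of tissue-type macrophages were read beside *Cd163* and *Folr2*. Of 41 tissue-resident and scavenger macrophage genes 19 were measured. 8 rose and 5 fell as deposited, with a median of 0.18, and 1 rose and 2 fell after quantile normalisation, with a median of 0.16. The 2 that fell on that scale were *Gas6* (-0.66, adjusted p = 0.0417 by limma) and *Ltc4s* (-0.62, adjusted p = 0.0279). Their differences as deposited were 0.03 and -0.06, neither past the threshold. *Clec7a*, the beta-glucan receptor dectin-1, rose on both scales (1.26 as deposited, adjusted p = 0.00128 by limma, and 1.41 after quantile normalisation, adjusted p = 0.0184). *Lyve1*, a hyaluronan receptor of perivascular macrophages and lymphatic vessels, rose by 1.31 as deposited (adjusted p = 0.00854 by limma) and had a difference of 0.50 after quantile normalisation (adjusted p = 0.208). *Timd4*, a receptor for apoptotic cells on resident macrophages, fell by 0.80 as deposited and had a difference of -0.28 after quantile normalisation (adjusted p = 0.0093 and 0.528 by limma). *Gpr34* fell by 0.91 as deposited, in the dimmest tertile with its median of -1.07, and had a difference of 0.19 after quantile normalisation. *Clec4f*, a lectin of liver macrophages, fell by 0.79 as deposited and had a difference of -0.24 after quantile normalisation. *Marco*, a scavenger receptor, had differences of 0.18 and -0.46, neither past the threshold. *Vsig4*, *Stab1* and *Mrc1* of this list were not analysed here.

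Of 35 genes of alternative activation 17 were measured. 6 rose and none fell as deposited (median 0.55), and 1 rose and none fell after quantile normalisation (median 0.10). *Pparg*, a lipid-sensing nuclear receptor, rose by 1.52 as deposited (adjusted p = 0.00112 by limma) and had a difference of 0.80 after quantile normalisation (adjusted p = 0.0666). *Arg1*, which breaks down arginine, rose by 1.05 as deposited (adjusted p = 0.0136 by limma) and had a difference of 0.16 after quantile normalisation (adjusted p = 0.501). *Rnase2a*, a ribonuclease of the eosinophil family, rose by 1.30 as deposited and had a difference of 0.50 after quantile normalisation. *Retnla*, a secreted protein induced by interleukin-4, had a difference of 0.10 as deposited (adjusted p = 0.645 by limma). It was the 1 gene of this list that rose after quantile normalisation (1.05, adjusted p = 0.0219 by limma). *Retnla* lay in the dimmest tertile, which had a median difference of -1.07 as deposited. Its deposited means were 3.65 ± 0.34 with anti-VEGF and 3.55 ± 0.07 in controls, and the groups overlapped. Among 20 measured genes of classical activation, 5 rose and 4 fell as deposited, and 4 rose and none fell after quantile normalisation. Their medians were 0.07 and 0.21. *Hif1a*, *Ptgs2* and *Il1a* rose on both scales. The 4 that fell as deposited were *Slamf1* (-0.96), a leukocyte receptor, and the cytokine subunit genes *Il12b* (-0.82), *Il23a* (-0.54) and *Il12a* (-0.52). Their differences after quantile normalisation were -0.24, -0.26, -0.03 and 0.13, and *Nos2* had differences of -0.29 and 0.22, neither past the threshold.

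The known inducers of the 4 genes were read through 23 of 38 cytokine and signalling genes, of which 9 rose and 5 fell as deposited, and 1 rose and 3 fell after quantile normalisation (medians 0.32 and -0.05). *Il10*, a known inducer of *Cd163*, fell by 0.78 as deposited (adjusted p = 0.0069 by limma) and had a difference of 0.06 after quantile normalisation (adjusted p = 0.797). *Il10* lay in the dimmest tertile, which had a median difference of -1.07 as deposited. Its receptor chain gene *Il10ra* rose on both scales, by 0.70 and 0.72 (adjusted p = 0.00843 and 0.0419 by limma). *Il13*, a known inducer of *Ccl17*, fell on both scales (-0.73 and -0.50, adjusted p = 0.00297 and 0.0419 by limma). The receptor chain genes *Crlf2* (-0.91, adjusted p = 0.0202 by limma) and *Csf2ra* (-0.84, adjusted p = 0.0215) fell after quantile normalisation. As deposited they had differences of -0.43 and -0.01, neither past the threshold. *Il4ra*, the receptor chain that interleukin-4 and interleukin-13 share, rose by 0.89 as deposited (adjusted p = 0.035 by limma) and had a difference of 0.18 after quantile normalisation. The IL-13 receptor chains went opposite ways as deposited. *Il13ra1*, the signalling chain, rose by 1.10, and *Il13ra2*, a decoy receptor, fell by 1.38 (adjusted p = 0.00307 and 0.00224 by limma). Their differences after quantile normalisation were 0.52 and -0.26 (adjusted p = 0.0959 and 0.433 by limma). *Il13ra1* lay in the brightest tertile and *Il13ra2* in the dimmest, which had median differences of 0.60 and -1.07 as deposited. *Csf1*, the macrophage growth factor, rose by 0.66 as deposited and had a difference of 0.18 after quantile normalisation. *Csf2* (-0.39 and -0.05) and the factor *Irf4* (-0.34 and 0.10) were past the threshold on neither scale. Control tumour 3 had 7.88 for *Il4ra*, against 9.41 to 9.49 in the other controls. *Il4* and *Stat6* were not analysed here.

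Genes next to *Cd163* in haemoglobin handling and next to *Folr2* in folate use were measured as well. Of 24 haemoglobin and iron genes 10 were measured, and 2 rose and 1 fell as deposited (median 0.42), while 1 rose and none fell after quantile normalisation (median 0.11). *Trf*, the iron carrier transferrin, rose on both scales (1.13 and 1.10). *Ftl1*, the ferritin light chain, rose by 0.85 and *Hpx*, the haem-binding haemopexin, fell by 0.49 as deposited, with differences of 0.14 and 0.06 after quantile normalisation. *Hp*, which encodes haptoglobin, the partner that CD163 recognises, had differences of 0.58 and -0.06, neither past the threshold. Of 26 folate genes 10 were measured, and 5 rose and 1 fell as deposited (median 0.52), while 2 rose and none fell after quantile normalisation (median 0.07). These 2 were *Mthfd1l* and *Mtr*, enzymes of one-carbon metabolism. *Tyms*, thymidylate synthase, rose by 0.91 as deposited and had a difference of 1.11 after quantile normalisation (adjusted p = 0.0505 by limma). *Izumo1r*, a folate receptor relative found on oocytes and regulatory T cells, fell by 0.56 as deposited and had a difference of -0.23 after quantile normalisation. Of the 21 genes of the scavenger receptor cysteine-rich family, to which CD163 belongs, 12 were measured. 2 rose and 5 fell as deposited (median -0.33), and none rose and 1 fell after quantile normalisation (median -0.31). The median over all genes was -0.44 as deposited. *Lgals3bp* rose by 1.35, and *Tmprss2* and *Cd5l* fell by 0.93 and 0.66 as deposited. *Dmbt1*, also on the acinar list, fell by 4.49 as deposited. It had 11.51, 4.02, 4.63 and 7.91 in anti-VEGF tumours 1 to 4, against 11.93, 11.33, 10.93 and 11.85 in control tumours 1 to 4, high where the acinar mean was high. *Cd163l1*, the nearest relative of *Cd163* in this list, had differences of -0.59 and -0.27, neither past the threshold.

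**Figure D5:**
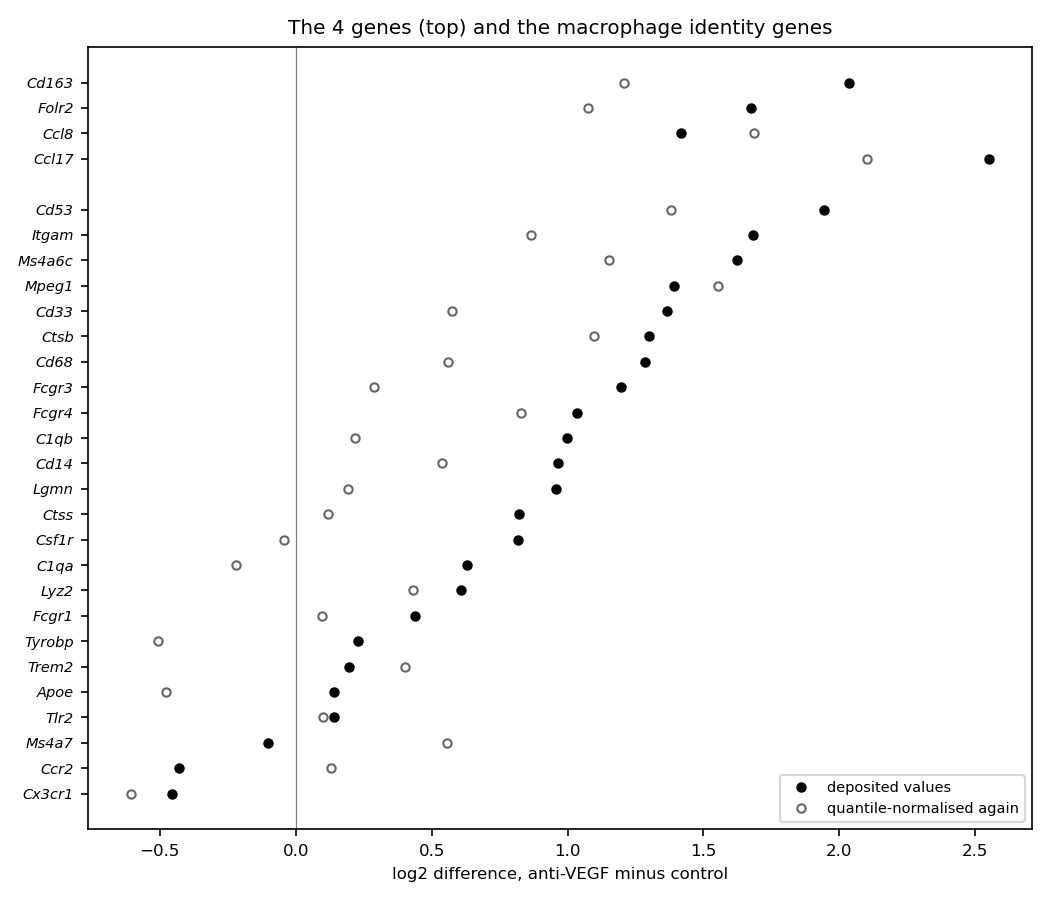
Log2 difference, anti-VEGF minus control, of the 4 genes (top) and of the 24 measured macrophage identity genes (below, ordered by the deposited difference). Filled points are deposited values and open points are quantile-normalised values. The list genes run from -0.45 to 1.95 as deposited, and on the quantile scale *Ccl8* and *Ccl17* lie above all of them.

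Markers of other cells that can hold these transcripts were counted. Dendritic cells can make CCL17, and of 21 measured dendritic cell genes 1 rose and 6 fell as deposited, and 1 rose and none fell after quantile normalisation. Their mean was 4.91 to 5.01 in anti-VEGF tumours and 4.99 to 5.37 in control tumours, and 4.97 to 5.14 and 4.91 to 5.12 after quantile normalisation. Of 10 monocyte genes 5 rose and none fell as deposited, with means of 6.42 to 6.71 in anti-VEGF tumours and 5.65 to 6.18 in control tumours. After quantile normalisation 1 rose, and the means were 6.24 to 6.50 and 6.11 to 6.26 and overlapped. Of 17 neutrophil and granule genes 7 rose and 4 fell as deposited, and 4 rose and 1 fell after quantile normalisation. Their means were 5.36 to 5.86 in anti-VEGF tumours and 5.01 to 5.34 in control tumours, and 5.43 to 5.80 and 4.96 to 5.28 after quantile normalisation. The part of these cells in the levels of the 4 genes was not tested.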

How the data were processed

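Total RNA of 8 tumours was hybridised to Affymetrix mouse transcriptome arrays, 1 array per tumour, with 6 µg RNA labelled per the labels. The authors normalised the arrays by the robust multi-array average (RMA), and the deposited values are log2 expression per probe set. The labels also name the Transcriptome Analysis Console. Arrays give no read depth, and their number limits the precision. The value table held 13266 probe sets. The platform annotation gave 1 symbol for 11743 of them, several for 800 and no symbol for 723. Probe sets with 1 symbol were used, and for 74 genes the probe set of highest mean was kept, which left 11667 genes. The choice of these probe sets is not given in the sources used here.

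Groups came from the treatment label. Differences, anti-VEGF minus control, were fitted over all genes with limma 3.58.1 in R 4.3.3, with Benjamini-Hochberg adjustment over all genes and a threshold of 0.05. The p-values weigh the difference between the groups against the spread between tumours, with a common variance for both groups. Tables and plots were made with Python 3.11.15 and matplotlib 3.10.9. The fit was run on simulated data whose arrays had no difference in spread between the groups, unlike the real arrays. There it called 0, 26, 36 and 49 of 50 genes at true log2 differences of 0.5, 1, 1.5 and 2. It also called 6 of 11467 unchanged genes. The effect of the unequal spread on the calls was not simulated. The 4 genes and the gene lists were chosen with earlier results of these data known, and the lists were written from general knowledge. The 4 genes were left out of the list counts. List genes are named where they were past the threshold with 1 of the 3 smallest p-values of a list, or where they stood on a fixed set of receptors, ligands and markers. For each of the 4 genes the 3 nearest genes by correlation are named. *Ctsb*, *Ccl3*, *Il1a*, *Il12a*, *Il12b*, *Il23a*, *Dmbt1*, *Gas6*, *Ltc4s*, *Crlf2*, *Csf2ra* and the chromosomal neighbours fall outside this rule and were chosen after their values were seen. Alternatives were quantile normalisation again, median centring, cyclic loess, the replicate number as a block, each array left out, the mean of probe sets, the dimmest tertile of genes left out, the trended robust variance and array weights. Quantile normalisation with an array left out or with the block was added after seeing the data. Promoters came from the RefSeq table of build GRCm38.p6. Gene positions are not given, because the sources used here do not name the build of the array annotation.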

Additional observations from a re-analysis of the deposited data

Results flagged for a closer look

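Within groups of 4 tumours, 11 of 148 sets of values had a single tumour whose gap to the nearest other tumour, as a share of the range of the group, exceeded Dixon's critical value. Chance flags about 1 in 20 such groups. None of the 4 genes was among them. 3 concerned control tumour 3 as the lowest control, in *Il4ra* (7.88, against 9.41 to 9.49 in the other controls), in the mean of the cytokine and signalling genes (5.70, against 6.10 to 6.18) and in the mean of the haemoglobin and iron genes (6.74, against 7.55 to 7.69). Control tumour 4 was the highest control for *Pparg* (7.02, against 6.04 to 6.10). The other 7 concerned anti-VEGF tumour 1, which was also the lowest of its group for *Cd163*, *Folr2*, *Ccl8* and *Ccl17*. It was the lowest of its group for *Ccr1* (5.71, against 6.60 to 6.72), *Ptgs2* (5.76, against 6.42 to 6.50), *Tyms* (5.60, against 5.94 to 6.00) and *Lgals3bp* (9.12, against 9.71 to 9.77). It was the highest for *Cd5l* (4.75, against 4.30 to 4.37), *Izumo1r* (4.85, against 4.38 to 4.45) and *Tmprss2* (4.09, against 3.66 to 3.72).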

How the results depend on the processing

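Each of the 4 genes was higher with anti-VEGF under every alternative run, though not past the threshold in every run. The size of the difference depended on the scale. For *Cd163* it was 1.21 after quantile normalisation and 1.05 after cyclic loess, and for *Folr2* it was 0.86 after cyclic loess. Relative to the macrophage identity mean, *Cd163* had 0.82 after quantile normalisation and 0.83 after cyclic loess, and *Ccl8* had 1.30 and 1.39. Of all genes, 2232 were higher and 5437 lower as deposited. These counts were 872 and 519 after quantile normalisation, 1339 and 1110 after cyclic loess and 3735 and 2787 after median centring, and 1870 were lower without the dimmest tertile of genes. The calls in the lists moved with the scale too. Of the macrophage identity genes, 2 rose after quantile normalisation, and 4 rose and 1 fell after cyclic loess, with 1 fallen under the trended robust variance and 0 to 1 when an array was left out. Of the tissue-resident and scavenger macrophage genes, 1 rose and 2 fell after quantile normalisation and after cyclic loess, 1 fell after median centring and 3 fell without the dimmest tertile. Of the alternative activation genes, 1 rose after quantile normalisation, 2 rose and 1 fell after cyclic loess and 12 rose after median centring. 1 of them fell under the trended robust variance, 2 with array weights and 0 to 2 when an array was left out. Of the CC chemokine ligands, none (0) fell after quantile normalisation or cyclic loess and 1 fell without the dimmest tertile. 4 rose after median centring, 2 after cyclic loess, 2 with array weights and 0 to 2 when an array was left out. Of the CC chemokine receptors, 0 fell after quantile normalisation or cyclic loess, 2 after median centring and 2 without the dimmest tertile. The causes of these changes were not tested.

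Tumours sharing a replicate number were not treated as pairs. Same-numbered tumours had correlations of their deviations of 0.190, 0.126, -0.0367 and 0.163, and nothing in the labels ties them. With the replicate block, 2159 genes were higher and 5422 lower, and 1 alternative activation gene fell. The 4 genes kept their differences under the replicate block by construction (2.04 for *Cd163*).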
